A study of Homo sapiens with 12 samples.

Results

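RNA-seq of 12 prostate cancer cell line libraries was examined for 32 genes of glucose uptake, glycolysis, lactate handling and the pentose phosphate pathway. The genes were a list of 33 names matched to Ensembl identifiers in the deposited tables, which hold 59424 genes each, and 1 of the 33 was not analysed here. CWR22Rv1 cells, a prostate cancer line derived from a xenograft, carried a lentiviral control shRNA (shControl) or a lentiviral shRNA against GALNT7 (GALNT7 KD). DU145 cells, a prostate cancer line from a metastasis, carried a lentiviral control open reading frame (OE control) or one that overexpresses GALNT7 (GALNT7 OE). There were 3 libraries per group in the 4 groups, labelled as biological replicates. The lines are stable lines made by lentiviral transduction, so every group carries an integrated vector. Whether they are clones or mixed populations is not given for these lines in the sources used here, nor is the promoter that drives the open reading frame. The p-values measure the spread between these libraries, and the source of the replicate cultures is not described. The study asked which genes respond when GALNT7, an enzyme of O-glycosylation in the Golgi, is lowered or raised.

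Glycolysis splits glucose into pyruvate in the cytosol and yields ATP and NADH. Glucose enters through transporters of the SLC2A family, is phosphorylated by hexokinase, and is committed to the pathway by phosphofructokinase. Lactate dehydrogenase turns pyruvate into lactate, which SLC16A transporters carry across the membrane. Pyruvate dehydrogenase kinases (PDK) inhibit pyruvate dehydrogenase, the mitochondrial complex that feeds pyruvate into the citric acid cycle. The pentose phosphate pathway branches off at glucose 6-phosphate and makes NADPH and the sugar of nucleotides. Tumours often make lactate from glucose in the presence of oxygen, whereas the normal prostate epithelium is known for secreting citrate. Many of these enzymes exist as isoenzymes, copies of the same activity encoded by separate genes.

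The values are normalised counts, that is, reads on a gene divided by 1 scaling factor per library. The lines were fitted separately with limma after adding 1 to each value and taking log2. Genes entered where their 6 libraries averaged 5 or more, and p-values were adjusted over all genes tested by the Benjamini-Hochberg method. A gene was called higher or lower at an adjusted p under 0.05. Log2 fold changes on this scale understate the changes of genes with few reads. The tables of the cell lines were scaled separately, so levels are compared within a line only, and the difference between the responses of the lines was not tested. The depth recovered from the values was 18364512 to 22264533 reads per library in CWR22Rv1 and 21628718 to 24356910 in DU145. GALNT7 had 862, 1042 and 1093 normalised counts in shControl and 481, 501 and 400 in GALNT7 KD cells (log2 fold change -1.11, standard error 0.129, limma adjusted p=0.00512). In DU145 it had 1051, 928 and 913 in the OE control and 1988, 2221 and 2334 in GALNT7 OE (log2 fold change 1.18, standard error 0.0863, limma adjusted p=8.0e-05). Of the markers of the lines, EPCAM, KRT8 and KRT18 were expressed in every library, with EPCAM and KRT18 lower in GALNT7 KD (log2 fold changes -0.71 and -0.35). With values centred on the chromosome median, EPCAM had -0.75 (limma adjusted p=0.00978). KRT18, which lies on chromosome 12, then had -0.08 (limma adjusted p=0.555). KRT8, on the same chromosome, was not called before centring (log2 fold change -0.07, limma adjusted p=0.34). Centred, KRT8 had 0.20 and passed as higher (limma adjusted p=0.0455). Of the markers of other cell types, the leukocyte gene PTPRC was at or below 2.10 in all libraries and the endothelial gene PECAM1 was at or below 6.47 in all but GALNT7 OE replicate 3, which held 49.3. The fibroblast collagen COL1A1 was at 287 to 419 in the OE control and 53.6 to 154 in GALNT7 OE, and at 29.3 to 62.8 in CWR22Rv1, and its part in the results below was not tested. In bulk RNA, fewer cells of a kind and less RNA per cell cannot be told apart.

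Stretches before the starts of 4 genes are shown because they hold ACGTG, the core of the element that hypoxia-inducible factors bind, outside annotated exons, and because their genes were called in at least 1 comparison. They come from RefSeq on GRCh38.p14, are written 5′ to 3′ on the plus strand, on which all 4 genes lie, and carry ACGTG on either strand in capitals. On the other strand ACGTG reads CACGT, and CACGTG, the E-box that MYC and ChREBP family proteins can bind, holds ACGTG on both strands.
PGK1 at chrX:78103998-78104173: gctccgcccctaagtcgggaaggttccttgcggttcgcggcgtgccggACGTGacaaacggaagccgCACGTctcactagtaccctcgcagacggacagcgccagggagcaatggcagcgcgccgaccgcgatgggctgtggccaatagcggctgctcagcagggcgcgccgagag
HK2 at chr2:74834920-74835169: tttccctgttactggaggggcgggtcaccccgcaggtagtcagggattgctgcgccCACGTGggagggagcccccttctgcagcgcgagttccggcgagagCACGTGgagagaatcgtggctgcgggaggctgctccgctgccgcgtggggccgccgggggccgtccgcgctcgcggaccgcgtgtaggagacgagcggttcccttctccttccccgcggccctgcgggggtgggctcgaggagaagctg
PGD at chr1:10398814-10399043: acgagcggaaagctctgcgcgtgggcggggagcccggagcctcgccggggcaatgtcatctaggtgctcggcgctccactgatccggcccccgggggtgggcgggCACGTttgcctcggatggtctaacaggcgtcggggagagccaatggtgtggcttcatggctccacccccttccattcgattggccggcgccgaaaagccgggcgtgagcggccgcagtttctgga
SLC16A3 at chr17:82228792-82229031: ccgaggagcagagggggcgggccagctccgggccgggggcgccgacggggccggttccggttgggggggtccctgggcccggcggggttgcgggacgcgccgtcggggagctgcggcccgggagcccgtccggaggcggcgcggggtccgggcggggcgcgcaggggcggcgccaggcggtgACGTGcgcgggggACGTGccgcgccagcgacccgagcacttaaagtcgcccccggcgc
The marked letters began 202 and 183 bases before the RefSeq start in PGK1, 194 and 149 in HK2, 145 in PGD and 68 and 55 in SLC16A3. Both matches in HK2 were E-boxes. All 4 stretches lie inside the bounds that GENCODE 29 gives the gene, since other transcripts start further upstream, and in none of its exons. Promoter sequence was found for 30 of the 32 genes, with 61 windows of 250 bases before a start. ACGTG stood on either strand in 22 of these windows (36.1%), which belong to 19 genes, against 18.5% of all 35114 windows. GCGTG, the other form of the core, stood in 31.1% of the windows of these genes and in 32.2% of all windows. CACGTG stood in 7 of the 61 windows (11.5%), against 6.35% of all. A match of letters is a description of the sequence and was not linked to a measured binding site.

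After GALNT7 overexpression in DU145 cells, 19 of the 32 genes were higher and 4 were lower. They included nearly the whole run of enzymes from glucose 6-phosphate to lactate: GPI, ALDOA, TPI1, GAPDH, PGK1, PGAM1, ENO1, PKM, LDHA and LDHB all rose. The largest changes among the 19 were those of the glucose transporter SLC2A3, GAPDH and PDK1. The level of SLC2A3 is uncertain, since 70.3% of the reads of its name family were assigned to pseudogenes. The genes that fell were ENO2, ENO3, the lactate exporter SLC16A3 and PDK2. The median log2 fold change of the 32 genes was 0.49, against -0.01 over all genes tested. Of the 18705 genes tested, 22.9% were called higher and 20.5% lower, so that 59.4% of the list higher stands against a high background. Most of these genes are strongly expressed. Among genes with a mean of at least 1000, 41.0% were called higher and 22.8% lower, and of the 24 listed genes with such a mean 14 were higher and 3 lower.

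In CWR22Rv1 cells with GALNT7 knocked down, 31 members could be tested, and 8 were higher and 4 lower. PFKP, PFKFB4, PGK1, PGAM1, BPGM, ENO1, SLC16A3 and PDK3 rose, while PFKM, TPI1, GAPDH and TALDO1 fell. The median log2 fold change was 0.08, against -0.01 over all genes. Of the 17906 genes tested, 5.28% were called higher and 3.79% lower, and among those with a mean of at least 1000 it was 8.50% and 6.27%. Of the 19 listed genes with such a mean, 3 were higher and 4 lower. With each library left out in turn, 1 of the 8 higher and 2 of the 4 lower calls passed in all 6 fits, against 17 of 19 and 3 of 4 in DU145. In CWR22Rv1 the genes called higher numbered 1 without shControl replicate 1 or GALNT7 KD replicate 1, 2 without shControl replicate 2 or 3, 5 without GALNT7 KD replicate 2 and 4 without GALNT7 KD replicate 3. The genes called lower numbered 2 to 4, with 2 without shControl replicate 1, shControl replicate 3 or GALNT7 KD replicate 1. The calls that passed in all 6 fits were PGK1, TPI1 and GAPDH. With eBayes without a trend, 3 genes were called higher and 0 lower. At an unadjusted p under 0.05 in that fit, 8 of the 31 were higher and 6 lower, and edgeR on the recovered reads called 8 higher and 4 lower.

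**Figure D1:**
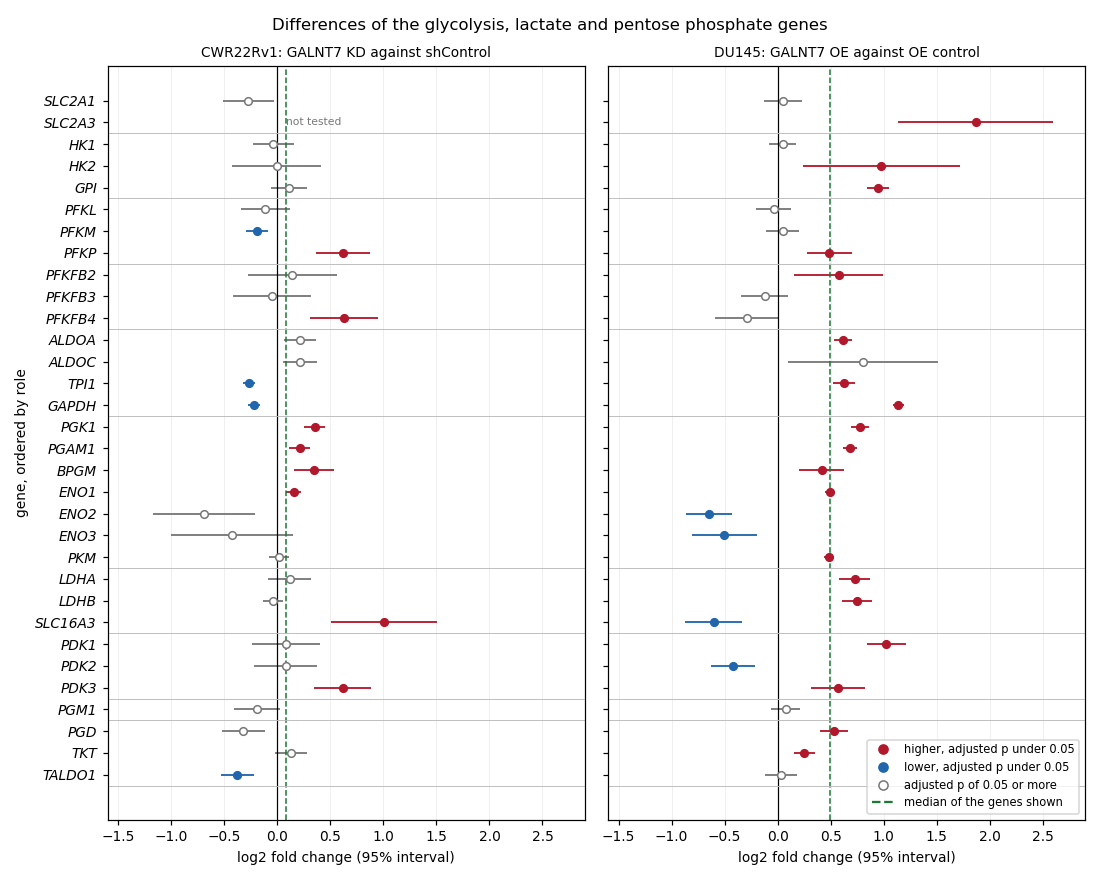
Log2 fold change of each gene with its 95% interval (points and bars), for knockdown in CWR22Rv1 (left) and overexpression in DU145 (right), with genes ordered by role from uptake to the pentose phosphate pathway and n = 3 libraries per group. Filled points passed an adjusted p of 0.05, red for higher and blue for lower, open points did not, and the dashed line is the median of the genes shown, 0.08 on the left and 0.49 on the right, and SLC2A3 was not tested on the left.

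Joined over both comparisons, 6 of the 31 members tested in both were higher in each: PFKP, PGK1, PGAM1, BPGM, ENO1 and PDK3. Of the 16124 genes tested in both, 1.72% were higher in each. Of the 6, only PGK1 kept its knockdown call with each library left out. GAPDH and TPI1 were lower after knockdown and higher after overexpression, and SLC16A3 was higher after knockdown and lower after overexpression, patterns that 1.30% and 1.58% of these genes had. GAPDH and TPI1 lie on chromosome 12, where 21.9% of the genes tested were called lower after knockdown. Centred on the chromosome median, their knockdown log2 fold changes were 0.05 and 0.0016 (limma adjusted p=0.347 and 0.983). PFKFB4, PFKM and TALDO1 were called after knockdown and not after overexpression. These are 2 separate contrasts in 2 cell lines with no shared library. The plot of single libraries shows how evenly the replicates behaved, with GAPDH, TPI1, PGK1 and PGAM1 nearly uniform within each group and HK2, PFKFB2 and ALDOC uneven.

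**Figure D2:**
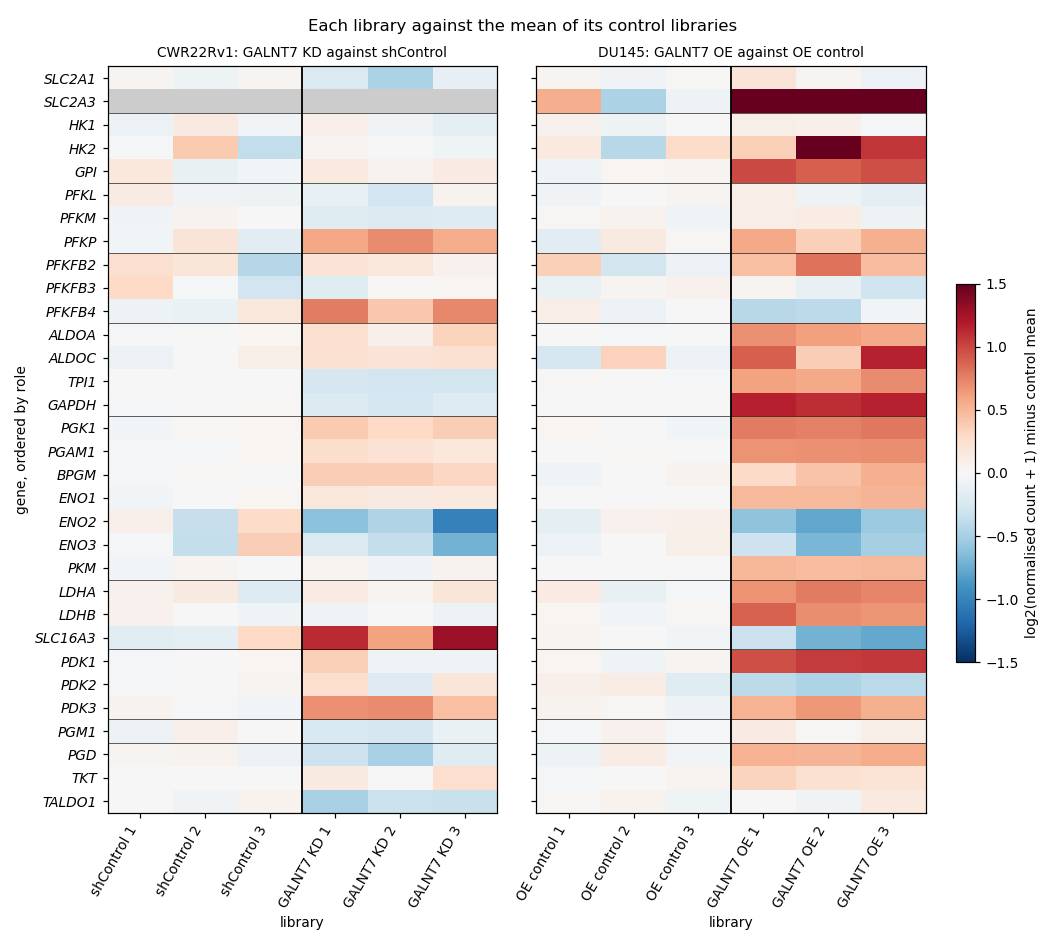
Every library as a column and every gene as a row, with colour for log2(normalised count + 1) minus the mean of the 3 control libraries (red higher, blue lower, clipped at 1.5 in either direction, grey for SLC2A3 in CWR22Rv1, which was not tested). Most rows of glycolytic enzymes are red in all 3 GALNT7 OE columns, and the rows of TPI1 and GAPDH are pale blue in all 3 GALNT7 KD columns.

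The RNA of 2 glucose transporter genes was measured, and glucose uptake itself was not. SLC2A1, which encodes GLUT1, the basal glucose transporter of most cells, had 1615, 1482 and 1611 normalised counts in shControl and 1353, 1125 and 1434 in GALNT7 KD cells. All 3 knockdown libraries lay below the controls, but the difference did not pass (log2 fold change -0.27, standard error 0.101, limma adjusted p=0.146). In DU145 it had 3959, 3717 and 3893 against 4401, 3970 and 3622, and the groups overlapped (log2 fold change 0.05, standard error 0.0749, limma adjusted p=0.64). SLC2A3, which encodes the high-affinity transporter GLUT3, had 23.9, 11.2 and 15.1 in the OE control and 52.1, 61.0 and 71.3 in GALNT7 OE. All 3 GALNT7 OE libraries were above the highest control (log2 fold change 1.87, standard error 0.307, limma adjusted p=0.00283). In CWR22Rv1 it was at 0.884 to 6.41 in all 6 libraries and was not tested. Even in GALNT7 OE cells SLC2A3 held only 1.18% ± 0.294 (SD, n=3) of the count per kb of the pair with SLC2A1, against 0.330% ± 0.118 (SD, n=3) in the control. SLC2A3 has a near-copy, the pseudogene SLC2A3P1, and 70.3% of the reads of this name family in DU145 were assigned to pseudogenes, so its own level is uncertain.

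Hexokinase traps glucose in the cell as its phosphate, and glucose 6-phosphate isomerase (GPI) turns this into fructose 6-phosphate. HK1, the housekeeping hexokinase, was at 3693, 4316 and 3813 in shControl and 4145, 3805 and 3561 in GALNT7 KD, and at 4296, 3903 and 4115 in the OE control and 4347, 4308 and 4065 in GALNT7 OE. Its groups overlapped in both lines. HK2, the inducible form found in many tumours, was at 271, 184 and 297 in the OE control and 315, 700 and 518 in GALNT7 OE (log2 fold change 0.98, standard error 0.312, limma adjusted p=0.0406). GALNT7 OE replicate 1 lay just above the highest control and replicates 2 and 3 well above it. The call for HK2 was lost, at an adjusted p of up to 0.114, when any library other than GALNT7 OE replicate 1 was left out, and over all 6 such fits the log2 fold change ranged from 0.71 to 1.29. In CWR22Rv1 HK2 was uneven among the controls, at 1907, 2543 and 1508, and was at 1995, 1951 and 1852 after knockdown (log2 fold change -0.01, standard error 0.175, limma adjusted p=0.986). GPI had 7166, 7619 and 7703 in the OE control and 14912, 13942 and 14598 in GALNT7 OE, with all GALNT7 OE libraries far above the controls (log2 fold change 0.95, standard error 0.0436, limma adjusted p=1.1e-05). Its values in CWR22Rv1 were 10995, 9147 and 9601 in shControl and 10970, 10266 and 10741 in GALNT7 KD (log2 fold change 0.11, standard error 0.0712, limma adjusted p=0.388).

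Phosphofructokinase is the committing step of glycolysis, and its tetramers are built from liver (PFKL), muscle (PFKM) and platelet (PFKP) subunits. PFKP was the subunit that rose in both comparisons. It had 696, 820 and 637 in shControl and 1068, 1168 and 1050 in GALNT7 KD (log2 fold change 0.62, standard error 0.107, limma adjusted p=0.019). The groups did not overlap, yet the adjusted p was up to 0.0756 without shControl replicate 1 or 3 or GALNT7 KD replicate 1 or 2. In DU145 PFKP had 4395, 5378 and 4947 in the OE control and 7276, 6244 and 7072 in GALNT7 OE (log2 fold change 0.49, standard error 0.0889, limma adjusted p=0.0045). PFKM was at 4646, 5003 and 4840 in shControl and at 4245, 4204 and 4219 in GALNT7 KD, the 3 knockdown libraries being almost equal (log2 fold change -0.19, standard error 0.0444, limma adjusted p=0.044). This small difference missed the threshold with any 1 of the 6 libraries left out, with an adjusted p of up to 0.131. In DU145 PFKM overlapped between groups (log2 fold change 0.05, standard error 0.0666, limma adjusted p=0.607). PFKL overlapped between groups in both lines, with log2 fold changes of -0.11 after knockdown and -0.04 after overexpression. PFKM overlaps SENP1 on the other strand, as PFKFB2 does YOD1 and PGM1 does ITGB3BP, and the strand setting of the counting is not given in the sources used here.

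The PFKFB enzymes make and break fructose bisphosphate of the kind that activates phosphofructokinase. PFKFB4 was at 295, 288 and 350 in shControl and 527, 411 and 511 in GALNT7 KD (log2 fold change 0.63, standard error 0.134, limma adjusted p=0.0349). It missed the threshold, with an adjusted p of up to 0.117, without any 1 library other than GALNT7 KD replicate 2. In DU145 the same gene had 398, 349 and 370 against 278, 283 and 360 and did not pass (log2 fold change -0.29, standard error 0.126, limma adjusted p=0.109). It passed as lower without GALNT7 OE replicate 3, with an adjusted p of 0.027, and after scaling to the 75th percentile, with an adjusted p of 0.0432. PFKFB2 had 1411, 909 and 1030 in the OE control and 1495, 1934 and 1509 in GALNT7 OE (log2 fold change 0.57, standard error 0.178, limma adjusted p=0.0368). All 3 GALNT7 OE libraries were above the controls, but GALNT7 OE replicate 1 only by a small margin. The PFKFB2 call was lost, at an adjusted p of up to 0.106, without any 1 library other than OE control replicate 1. PFKFB2 in CWR22Rv1 and PFKFB3, a hypoxia-inducible form with high kinase activity, in either line showed no difference that passed, with log2 fold changes of 0.14, -0.05 and -0.12.

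The middle of the pathway splits the sugar and makes NADH. ALDOA, the main aldolase, rose in DU145 from 24879, 24633 and 25046 to 39948, 37993 and 36703 (log2 fold change 0.62, standard error 0.0352, limma adjusted p=2.7e-05). In CWR22Rv1 it had 15293, 15636 and 15896 in shControl and 18370, 16434 and 19596 in GALNT7 KD, which did not overlap but did not pass (log2 fold change 0.21, standard error 0.0638, limma adjusted p=0.0881). It did pass with DESeq2 on the recovered reads, with an adjusted p of 0.0256, and without GALNT7 KD replicate 2, with an adjusted p of 0.024. ALDOC, the brain aldolase, had 974, 1030 and 1097 in shControl and 1206, 1177 and 1212 in GALNT7 KD (log2 fold change 0.21, standard error 0.0682, limma adjusted p=0.103). In DU145 it was at 15.3, 23.5 and 17.1 in the OE control and 35.1, 24.0 and 42.0 in GALNT7 OE, few reads for a gene of this pathway (log2 fold change 0.81, standard error 0.299, limma adjusted p=0.0659). Without GALNT7 OE replicate 2 ALDOC passed, with an adjusted p of 0.0415.

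Triose phosphate isomerase (TPI1) and glyceraldehyde phosphate dehydrogenase (GAPDH) varied little within each group, and they moved in opposite directions in the 2 comparisons. TPI1 had 25909, 26111 and 25853 in shControl and 21812, 21353 and 21494 in GALNT7 KD (log2 fold change -0.27, standard error 0.0251, limma adjusted p=0.00269). In DU145 it had 8688, 8658 and 8498 in the OE control and 13056, 12815 and 14055 in GALNT7 OE (log2 fold change 0.63, standard error 0.0427, limma adjusted p=5.8e-05). GAPDH, often used as a reference gene, had 100841, 102297 and 102972 in shControl and 88409, 85418 and 89262 in GALNT7 KD (log2 fold change -0.22, standard error 0.0232, limma adjusted p=0.00377). Both knockdown calls were lost with values centred on the chromosome median, which turned the log2 fold changes to 0.0016 for TPI1 and 0.05 for GAPDH, and with eBayes without a trend, at adjusted p of 0.071 and 0.114. In DU145 GAPDH had 40817, 40805 and 40484 in the OE control and 91033, 87524 and 90355 in GALNT7 OE, 2.20-fold higher (log2 fold change 1.14, standard error 0.0231, limma adjusted p=8.5e-07). GAPDH took 0.182% to 0.184% of all normalised counts in the OE control and 0.389% to 0.405% in GALNT7 OE, and 0.511% to 0.523% in shControl and 0.436% to 0.455% in GALNT7 KD. All 32 genes together took 1.29% to 1.30% in the OE control and 1.92% to 1.98% in GALNT7 OE, and in CWR22Rv1 1.49% to 1.52% and 1.42% to 1.49%, where the lowest control lay just above the highest knockdown library. The 62 annotated GAPDH pseudogenes held 0.0823% of the reads of the GAPDH name family in CWR22Rv1 and 0.0703% in DU145.

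Of the 7 genes grouped here as lower glycolysis, 4 were among the 8 that rose after knockdown, beside 5.28% of all genes tested. These were PGK1, PGAM1, BPGM and ENO1. PGK1, phosphoglycerate kinase, was at 7730, 8048 and 8109 in shControl and 10455, 9762 and 10247 in GALNT7 KD (log2 fold change 0.35, standard error 0.0416, limma adjusted p=0.00588). With eBayes without a trend its adjusted p was 0.0511. It was at 6668, 6575 and 6340 in the OE control and 11218, 11022 and 11323 in GALNT7 OE (log2 fold change 0.78, standard error 0.0353, limma adjusted p=1.0e-05). PGAM1, phosphoglycerate mutase, had 7550, 7552 and 7776 against 9138, 8838 and 8504 in CWR22Rv1 (log2 fold change 0.21, standard error 0.0406, limma adjusted p=0.0259) and 9950, 10175 and 9940 against 15924, 16086 and 16184 in DU145 (log2 fold change 0.68, standard error 0.0288, limma adjusted p=8.5e-06). BPGM, which makes the bisphosphoglycerate that loosens oxygen from haemoglobin, rose from 337, 344 and 339 to 438, 441 and 421 after knockdown (log2 fold change 0.35, standard error 0.0791, limma adjusted p=0.0425) and from 404, 414 and 434 to 509, 564 and 603 after overexpression (log2 fold change 0.42, standard error 0.0897, limma adjusted p=0.00896). The knockdown calls of PGAM1 and BPGM were lost in most fits without 1 library. PGAM1 kept its call only without GALNT7 KD replicate 3 and BPGM in none of these fits, with adjusted p of up to 0.0984 and 0.132. BPGM also missed the threshold after scaling to the 75th percentile, with an adjusted p of 0.0511.

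The 3 enolases, which make phosphoenolpyruvate, did not move together. ENO1, the ubiquitous form, had 22965, 23600 and 24093 in shControl and 26569, 25799 and 26156 in GALNT7 KD, a small difference (log2 fold change 0.15, standard error 0.0296, limma adjusted p=0.0263). It passed only without GALNT7 KD replicate 2 among the fits without 1 library, and the adjusted p was up to 0.107 in the others. In DU145 ENO1 had 59182, 58898 and 58538 in the OE control and 82525, 82435 and 83850 in GALNT7 OE (log2 fold change 0.49, standard error 0.0194, limma adjusted p=6.8e-06). ENO2, the neuronal form and a marker of neuroendocrine cells, went down instead, from 1519, 1755 and 1766 to 1106, 972 and 1135 (log2 fold change -0.65, standard error 0.0904, limma adjusted p=0.00136). ENO2 in CWR22Rv1 was at 695, 517 and 797 in shControl and 430, 480 and 327 in GALNT7 KD, without overlap, and did not pass (log2 fold change -0.69, standard error 0.202, limma adjusted p=0.0806). DESeq2 on the recovered reads did call it lower, with an adjusted p of 0.0131. ENO3, the muscle form, had 226, 238 and 256 in the OE control and 192, 149 and 169 in GALNT7 OE (log2 fold change -0.50, standard error 0.128, limma adjusted p=0.0179). The call for ENO3 was lost without OE control replicate 2 or 3 or GALNT7 OE replicate 2, with an adjusted p of up to 0.0619. In CWR22Rv1 ENO3 overlapped between groups, at 49.1 to 105 (log2 fold change -0.43, standard error 0.241, limma adjusted p=0.315). ENO3 overlaps the far stronger gene PFN1 on the other strand, whose mean was 14768 in CWR22Rv1 and 18975 in DU145.

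PKM, pyruvate kinase, gives the last ATP of glycolysis. It had 18401, 19434 and 18839 in shControl and 19427, 18276 and 19575 in GALNT7 KD, an overlap with a log2 fold change of 0.01 and a 95% interval of -0.08 to 0.11. In DU145 PKM had 53027, 53000 and 52521 in the OE control and 74414, 73025 and 74311 in GALNT7 OE (log2 fold change 0.48, standard error 0.01999, limma adjusted p=7.8e-06). The gene makes the spliced forms PKM1 and PKM2, which counts per gene cannot separate.

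Lactate is made by tetramers of LDHA and LDHB, the former favouring lactate and the latter pyruvate. Both rose after overexpression. LDHA had 13643, 11635 and 12419 in the OE control and 19934, 21533 and 20812 in GALNT7 OE (log2 fold change 0.73, standard error 0.0620, limma adjusted p=1.5e-04). LDHB had 7062, 6729 and 7038 in the OE control and 12789, 11277 and 11012 in GALNT7 OE (log2 fold change 0.75, standard error 0.0614, limma adjusted p=1.3e-04). Neither passed after knockdown: LDHA was at 16421, 17228 and 13781 in shControl and 17130, 16160 and 17892 in GALNT7 KD, and LDHB at 26240, 25195 and 24153 and 24266, 25289 and 23870, with overlap in both. LDHA pseudogenes held 2.00% of the reads of this name family in CWR22Rv1 and 2.02% in DU145. SLC16A3, which encodes MCT4, the main exporter of lactate in glycolytic cells, rose after knockdown and fell after overexpression. It had 245, 249 and 339 in shControl and 599, 418 and 673 in GALNT7 KD (log2 fold change 1.01, standard error 0.210, limma adjusted p=0.0337). In DU145 it had 4264, 4167 and 4039 in the OE control and 3312, 2537 and 2443 in GALNT7 OE (log2 fold change -0.60, standard error 0.113, limma adjusted p=0.00509). The knockdown call of SLC16A3 was lost, with an adjusted p of up to 0.113, without shControl replicate 1 or 2 or GALNT7 KD replicate 1 or 3. SLC16A3 overlaps CSNK1D on the other strand.

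Pyruvate dehydrogenase kinases switch off the complex that feeds pyruvate to the citric acid cycle, and the 3 of the list differed. A further kinase, PDK4, had 10226, 9289 and 9044 in shControl, where PDK2 had 602, 608 and 628. The exonic length of PDK4 is the shorter, at 4519 against 5481 bases. PDK4 rose after knockdown and is described below with the other pathway genes. PDK1, a hypoxia target, had 314, 296 and 316 in the OE control and 602, 639 and 646 in GALNT7 OE, with little spread in either group (log2 fold change 1.02, standard error 0.0774, limma adjusted p=9.0e-05). PDK2, the widely expressed form, fell from 1389, 1420 and 1165 to 1004, 957 and 995 (log2 fold change -0.42, standard error 0.0878, limma adjusted p=0.00785). PDK3 had 135, 131 and 123 in the OE control and 186, 204 and 188 in GALNT7 OE (log2 fold change 0.57, standard error 0.108, limma adjusted p=0.00517). After knockdown PDK3 was again higher, at 189, 179 and 177 in shControl and 293, 298 and 249 in GALNT7 KD (log2 fold change 0.62, standard error 0.113, limma adjusted p=0.0222). Without any 1 library other than GALNT7 KD replicate 3 this call was lost, with an adjusted p of up to 0.0875. PDK1 and PDK2 overlapped between groups in CWR22Rv1, with log2 fold changes of 0.08 and 0.08.

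The side branches are represented by PGM1, which links glucose 6-phosphate to glycogen, and by PGD, TKT and TALDO1 of the pentose phosphate pathway. PGM1 had 385, 429 and 410 in shControl and 349, 341 and 380 in GALNT7 KD (log2 fold change -0.19, standard error 0.0920, limma adjusted p=0.242), and its log2 fold change in DU145 was 0.08. PGD, which makes NADPH in the oxidative arm, rose in DU145 from 4289, 4872 and 4404 to 6498, 6414 and 6639 (log2 fold change 0.53, standard error 0.0555, limma adjusted p=3.8e-04). In CWR22Rv1 it had 4429, 4433 and 4023 in shControl and 3472, 3070 and 3788 in GALNT7 KD, all lower, and missed the threshold (log2 fold change -0.32, standard error 0.0857, limma adjusted p=0.0653). Without GALNT7 KD replicate 3 PGD passed, at an adjusted p of 0.0427, and it did so with DESeq2, at 0.00746. TKT and TALDO1 carry the non-oxidative arm, which returns sugars to glycolysis. TKT had 17676, 18068 and 18591 in the OE control and 22778, 21175 and 20799 in GALNT7 OE (log2 fold change 0.25, standard error 0.0423, limma adjusted p=0.00308), and its groups overlapped in CWR22Rv1. TALDO1 had 2712, 2631 and 2819 in shControl and 1937, 2179 and 2164 in GALNT7 KD (log2 fold change -0.38, standard error 0.0653, limma adjusted p=0.0184). The TALDO1 call was lost without shControl replicate 1 or 3 or GALNT7 KD replicate 1, with an adjusted p of up to 0.0713. In DU145 TALDO1 overlapped between groups, with a log2 fold change of 0.03.

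Levels of different genes are set side by side per kb of exonic length. In DU145 controls GAPDH led with 13654 ± 63.2 (SD, n=3) normalised counts per kb, followed by ENO1 with 11159 ± 61.1 (SD, n=3), ALDOA with 6346 ± 53.0 (SD, n=3) and PKM with 6166 ± 33.2 (SD, n=3). By the length of the principal transcript, a choice made after the data were seen, PKM lay above ALDOA there. The values were then 19451 ± 105 (SD, n=3) and 16034 ± 134 (SD, n=3). In CWR22Rv1 controls GAPDH had 34229 ± 365 (SD, n=3), TPI1 9614 ± 50.2 (SD, n=3), LDHB 8447 ± 350 (SD, n=3) and ENO1 4464 ± 107 (SD, n=3). SLC2A3 was the lowest in both lines, with ALDOC next in DU145 at 6.37 ± 1.48 (SD, n=3). Among the regulatory genes, the PFKFB genes of the list and PDK1, PDK2 and PDK3 lay far below the leading genes. They ran from 23.5 ± 0.429 (SD, n=3) for PDK1 to 131 ± 27.2 (SD, n=3) for PFKFB3 in shControl. In the OE control the same genes stood at 20.7 ± 0.766 (SD, n=3) and 339 ± 20.02 (SD, n=3). PDK4 is not in the list and is not included here.

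**Figure D3:**
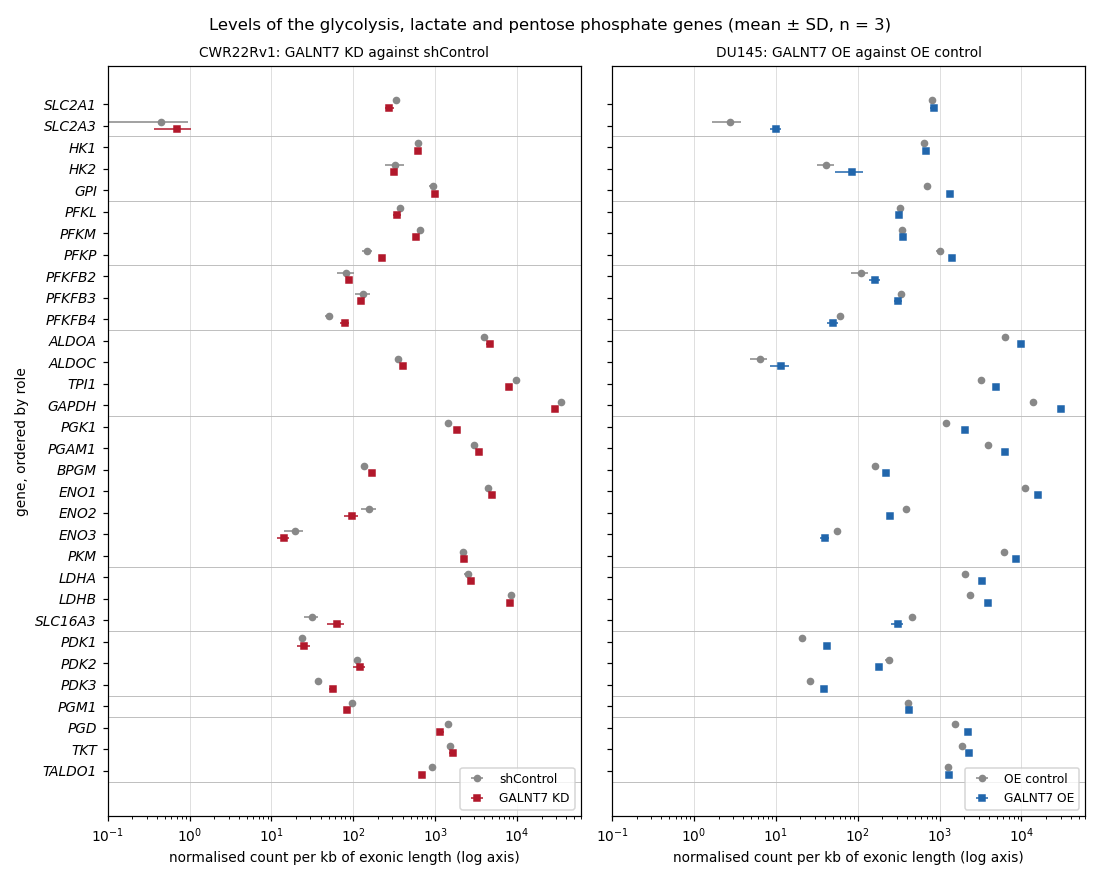
Mean normalised count per kb of exonic length on a log axis, with bars for the SD of 3 libraries, for CWR22Rv1 (left) and DU145 (right), controls as grey circles and GALNT7 KD or GALNT7 OE as coloured squares. ALDOA, TPI1, GAPDH, PGK1, PGAM1, ENO1, PKM, LDHA and LDHB lie above 1000 per kb in every group, and in DU145 GAPDH goes from 13654 to 30070 per kb.

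The make-up of each isoenzyme family was compared through 14 ratios, each taken within a library. With 3 libraries against 3, the two-sided exact permutation test cannot give a p under 0.1, so none of these ratios can pass 0.05, and over the 14 pairs the lowest adjusted p was 0.28 in knockdown and 0.156 in overexpression. In DU145 the ratio of ENO2 to ENO1 went from -5.13 ± 0.130 (SD, n=3) to -6.28 ± 0.111 (SD, n=3) on the log2 scale, a difference of -1.14 without overlap (exact permutation p=0.1). ENO3 to ENO1 differed by -0.9960, also without overlap. PDK1 to PDK2 differed by 1.45 and PDK3 to PDK2 by 0.99, and no library of one group reached the other. HK2 to HK1 differed by 0.93, PFKP to PFKL by 0.52 and SLC2A1 to SLC2A3 by -1.82, again without overlap. LDHA to LDHB had 0.85 ± 0.0852 (SD, n=3) in OE controls, which compares with 0.83 ± 0.165 (SD, n=3) in GALNT7 OE, a difference of -0.02, and the groups overlapped.

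In CWR22Rv1 PFKP to PFKL went from -2.20 ± 0.218 (SD, n=3) to -1.47 ± 0.250 (SD, n=3), a difference of 0.73. ENO2 to ENO1 differed by -0.85 and ENO3 to ENO1 by -0.58, the same sign as in DU145. By themselves neither ENO2 nor ENO3 passed in CWR22Rv1 (limma adjusted p=0.0806 and 0.315). ENO2 lies on chromosome 12, whose median log2 fold change was -0.28 there. Centred on that median, ENO2 had -0.42 (limma adjusted p=0.239). PDK3 to PDK2 differed by 0.54 and PDK1 to PDK3 by -0.54. LDHA to LDHB and HK2 to HK1 overlapped, with differences of 0.16 and 0.03.

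**Figure D4:**
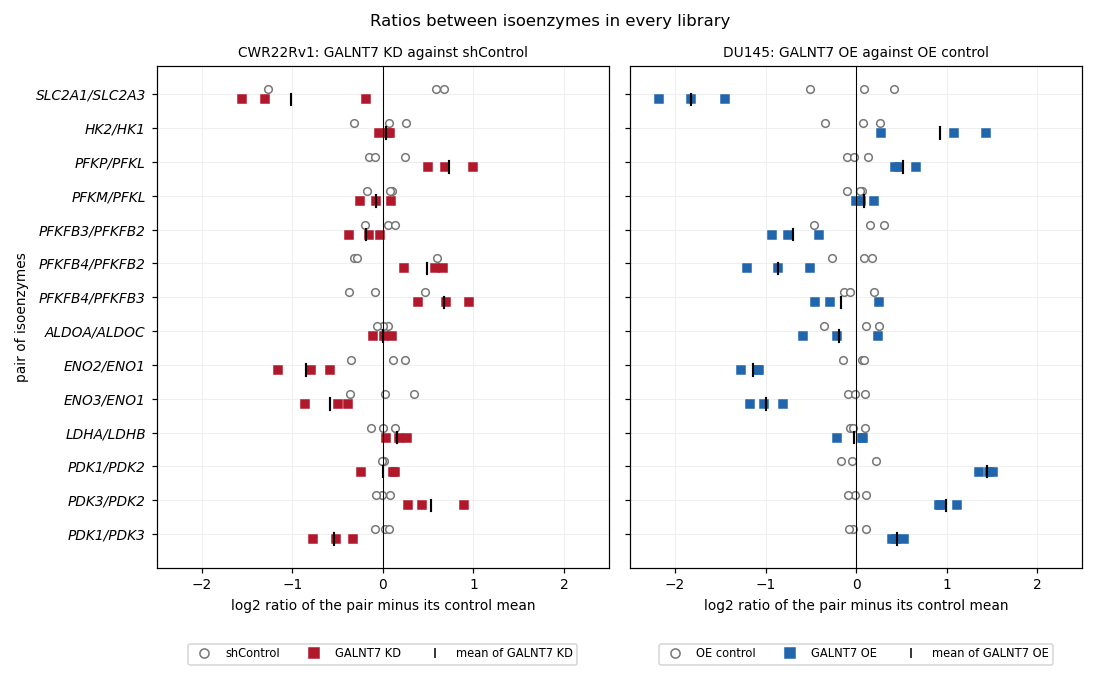
Log2 ratio of 14 isoenzyme pairs in every library, minus the mean of the control libraries, for CWR22Rv1 (left) and DU145 (right), with open circles for controls, filled squares for GALNT7 KD or GALNT7 OE and a bar for the mean of the squares. In DU145 the squares of ENO2/ENO1 and ENO3/ENO1 lie left of all circles and those of PDK1/PDK2 right of them, while those of LDHA/LDHB overlap the circles.

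In shares of the count per kb, PFKP made up 12.6% ± 1.29 (SD, n=3) of the phosphofructokinase genes in shControl and 19.8% ± 1.62 (SD, n=3) in GALNT7 KD, where PFKM was the main subunit. In DU145 PFKP was the main subunit, with 59.8% ± 2.12 (SD, n=3) in OE controls, which compares with 67.4% ± 2.35 (SD, n=3) in GALNT7 OE. ENO1 held 96.1% ± 0.313 (SD, n=3) of the enolase counts in OE controls, and this was 98.2% ± 0.141 (SD, n=3) with GALNT7 OE. HK2 held 5.93% ± 1.17 (SD, n=3) of the hexokinase pair in OE controls and 11.0% ± 3.77 (SD, n=3) once GALNT7 was raised, against 34.0% ± 4.49 (SD, n=3) in shControl. Among the 3 kinases of the list PDK2 was the main one in DU145, with 83.7% ± 1.36 (SD, n=3) in OE controls, which compares with 68.9% ± 1.32 (SD, n=3) in GALNT7 OE. LDHA held 46.5% ± 1.47 (SD, n=3) of the pair with LDHB in OE controls, and 46.1% ± 2.83 (SD, n=3) once GALNT7 was raised. With the length of the principal transcript in place of the exonic length of the gene, a choice made after the data were seen, LDHA held 57.2% ± 1.44 (SD, n=3) in the OE control, so which of the pair leads in DU145 depends on the length used. In CWR22Rv1 LDHB led by either length, with LDHA at 23.1% ± 1.61 (SD, n=3) or 31.6% ± 1.96 (SD, n=3) in shControl.

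The list holds 6 genes on chromosome 12, GAPDH, TPI1, ENO2, LDHB, PFKM and SLC2A3, and in CWR22Rv1 this chromosome stood apart. Of its 922 tested genes 83.2% had a log2 fold change below 0, and their median was -0.28 (quartiles -0.50 and -0.09), against 0.01 over the other chromosomes. On chromosome 12 21.9% of the genes were called lower and 2.06% higher. Of the 5 members tested there, 3 were lower and 0 higher, with a median of -0.22, and of the 26 elsewhere 1 was lower and 8 were higher, with a median of 0.11. GAPDH, TPI1 and PFKM thus lay within the quartiles of the genes of their own chromosome. After each gene was centred on the median of its chromosome, the log2 fold change was 0.05 for GAPDH, 0.0016 for TPI1 and 0.08 for PFKM (limma adjusted p=0.347, 0.983 and 0.34). None of them was then lower, LDHB was higher by 0.23 (limma adjusted p=0.015), and ENO2 remained at -0.42 (limma adjusted p=0.239). In DU145 the median of chromosome 12 was 0.07 and the 4 members there that rose, SLC2A3, TPI1, GAPDH and LDHB, rose by far more. The cause of the shift of the chromosome in CWR22Rv1 was not tested.

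**Figure D5:**
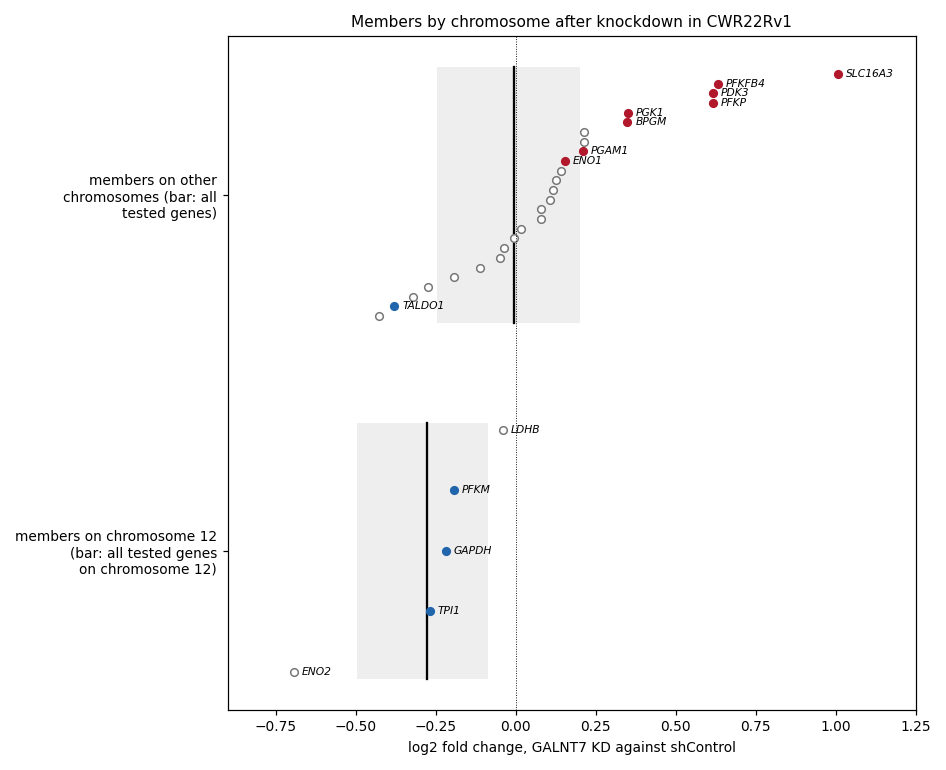
Log2 fold changes after knockdown in CWR22Rv1 for members on chromosome 12 (lower row) and on other chromosomes (upper row), red for called higher, blue for called lower and open for not called. The grey bars run between the quartiles of all tested genes on chromosome 12 (lower) and of all tested genes (upper), with the median as a black line at -0.28 and -0.01, and GAPDH, TPI1 and PFKM sit inside the lower bar.

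Other genes of the same pathways, from a list of rarer isoenzymes, transporters, gluconeogenic enzymes, the pyruvate carrier and dehydrogenase and the rest of the pentose phosphate pathway, gave 39 genes that could be tested in DU145. Of these 16 were higher and 11 lower, with a median log2 fold change of 0.07, beside the 22.9% and 20.5% over all genes. The 3 highest of those with a mean of at least 50 were PCK2, DLAT and HKDC1, a mitochondrial enzyme of phosphoenolpyruvate synthesis, a subunit of pyruvate dehydrogenase and a further hexokinase. PCK2 had 407, 396 and 589 in the OE control and 1112, 1190 and 1021 in GALNT7 OE (log2 fold change 1.28, standard error 0.161, limma adjusted p=8.6e-04), and DLAT and HKDC1 rose by 0.84 and 1.06 on the log2 scale. The 3 lowest were SLC16A7, which encodes the lactate and pyruvate carrier MCT2, PDP1, the phosphatase that reactivates pyruvate dehydrogenase, and the glucose transporter SLC2A10. PDP1 had 3437, 3174 and 3335 against 1831, 1611 and 1421 (log2 fold change -1.04, standard error 0.0944, limma adjusted p=2.0e-04). SLC16A7 and SLC2A10 had log2 fold changes of -1.12 and -0.9987. SLC16A7 lost its call without any 1 library other than OE control replicate 1, with an adjusted p of up to 0.0764.

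After knockdown 9 of 38 such genes were higher and 1 was lower, with a median of 0.18, beside 5.28% and 3.79% over all genes. PDK4, the starvation-induced pyruvate dehydrogenase kinase, went from 10226, 9289 and 9044 to 20868, 22383 and 20690 (log2 fold change 1.16, standard error 0.0566, limma adjusted p=2.5e-04), and passed with each library left out. PGM2L1, which makes glucose bisphosphate, had 46.7, 44.2 and 41.2 in shControl and 158, 74.7 and 144 in GALNT7 KD (log2 fold change 1.42, standard error 0.294, limma adjusted p=0.0322), and the transporter gene SLC16A8 had 55.1, 53.9 and 49.4 and 80.2, 84.3 and 103 (log2 fold change 0.74, standard error 0.165, limma adjusted p=0.041). SLC16A7 was the gene that fell, from 632, 530 and 538 to 359, 260 and 239 (log2 fold change -1.0021, standard error 0.168, limma adjusted p=0.0171). It lies on chromosome 12, and centred on the median of that chromosome it had -0.73 (limma adjusted p=0.0465). The SLC16A7 call was lost without shControl replicate 1 or 3 or GALNT7 KD replicate 2, with an adjusted p of up to 0.0677. PGM2L1 kept its call only without GALNT7 KD replicate 2 and SLC16A8 in no fit without 1 library, with adjusted p of up to 0.103 and 0.119. The count of 9 fell to 1 without shControl replicate 1 or GALNT7 KD replicate 1, to 2 without shControl replicate 3, to 4 without GALNT7 KD replicate 2 and to 5 without shControl replicate 2, and it was 6 without GALNT7 KD replicate 3.

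Because many glycolytic genes are targets of hypoxia-inducible factors, 19 such targets outside glycolysis were set beside them. In DU145, where 19 glycolytic and related genes rose, 5 of 18 of these targets were higher and 6 lower, with a median of -0.05, beside 22.9% and 20.5% of all genes tested. NDRG1, a stress-induced gene, had 9964, 10162 and 9718 in the OE control and 3350, 2959 and 2843 in GALNT7 OE (log2 fold change -1.71, standard error 0.0655, limma adjusted p=6.2e-06). VEGFA, the vascular growth factor, had 13828, 13761 and 14522 against 7475, 6794 and 7531 (log2 fold change -0.95, standard error 0.0501, limma adjusted p=2.0e-05), and the carbonic anhydrase CA12 had a log2 fold change of -0.64, a call lost without OE control replicate 3 or GALNT7 OE replicate 1 or 2 (adjusted p of up to 0.0646). The 3 highest were STC2, ERO1A and BNIP3L, with log2 fold changes of 0.70, 0.37 and 0.34. In CWR22Rv1 6 of 19 were higher and 0 lower, with a median of 0.37, beside 5.28% and 3.79% of all genes. The genes higher included NDRG1, P4HA2, a collagen prolyl hydroxylase, and BNIP3, a mitophagy receptor, by 1.02, 0.96 and 0.71. Of the 6 genes higher, 3 were called without any 1 shControl library and 2 without GALNT7 KD replicate 1, and the counts were 5 and 6 without replicates 2 and 3. P4HA2 missed the threshold without shControl replicate 2 or 3 or GALNT7 KD replicate 1, with an adjusted p of up to 0.0695. At an unadjusted p under 0.05 in limma, 0 of the 19 were lower, and edgeR and DESeq2 called 0 lower.

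Of 7 regulators of these genes, 6 were lower in GALNT7 OE and 0 higher, beside 20.5% and 22.9% of all genes tested. These 7 were named after their values were seen, so the count only describes the genes chosen. TXNIP, which restrains glucose uptake and is induced by glucose, had 8265, 8165 and 8145 in the OE control and 442, 410 and 443 in GALNT7 OE, far below every control (log2 fold change -4.24, standard error 0.0529, limma adjusted p=1.1e-07). EPAS1, which encodes HIF2A, went from 9802, 9397 and 9424 to 3605, 3310 and 3499 (log2 fold change -1.46, standard error 0.0456, limma adjusted p=3.2e-06), while HIF1A and MYC had log2 fold changes of -0.17 and -0.28, both called lower. The HIF1A call was lost without OE control replicate 1 or 2 or GALNT7 OE replicate 1 or 2, with an adjusted p of up to 0.0721. After knockdown TXNIP was lower as well, at 6232, 6326 and 6466 in shControl and 3744, 3803 and 3918 in GALNT7 KD (log2 fold change -0.73, standard error 0.0411, limma adjusted p=4.4e-04), and HIF1A and EPAS1 were higher, by 0.41 and 0.92. Without shControl replicate 1 or GALNT7 KD replicate 1 EPAS1 missed the threshold, with an adjusted p of up to 0.0614. MLXIP was uneven among the OE controls, at 1228, 3145 and 3022, and did not pass in either line.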

How the data were processed

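RNA was extracted for 12 libraries with an RNeasy kit and sequenced as stranded mRNA libraries. The submitters' processing notes name FastQC, Salmon, DESeq2, R 3.5.3 and hg38 without roles, and the annotation release is not given in the sources used here. The authors deposited a table of normalised counts per Ensembl gene for each cell line (unit: signal), with replicates kept apart. Within a tolerance of 0.01, 100% of the values in each library were whole multiples of a single step, which gave back the reads. On these edgeR called 884 genes higher and 662 lower after knockdown, and 4218 and 3824 after overexpression. GENCODE 29 names were matched to 94.4% of the identifiers. No column was without a sample.

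Each line was fitted with limma 3.58.1 in R 4.3.3 (lmFit, eBayes with trend) on log2 values with a pseudocount of 1, keeping genes that averaged at least 5, with Benjamini-Hochberg adjustment over all genes tested. A test on the log scale was used because the deposited values are normalised. edgeR 4.0.16 and DESeq2 1.42.0 on recovered reads, other pseudocounts, filters, scalings, thresholds, a replicate block, chromosome centring and leaving out each library were alternatives. The fits were tested on simulated data. Isoenzyme ratios were compared with the two-sided exact permutation test. The listed genes and GALNT7 were named, and of other pathway genes and HIF targets the 3 highest and 3 lowest called genes with a mean of at least 50. The members and lists were chosen with earlier results of these data known. 1 marker of the lines is not reported here.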

Additional observations from a re-analysis of the deposited data

How the results depend on the processing

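Of the calls on members after overexpression, 17 of 19 higher and 3 of 4 lower passed under every alternative. After knockdown 0 of the 12 limma calls did, and PGK1, TPI1 and GAPDH passed with each library left out but not with eBayes without a trend. DESeq2 on the recovered reads called 9 members higher and 6 lower after knockdown, and over all genes 1481 higher and 1161 lower, against 945 and 678 with limma. Counting the log2 fold changes of single genes, 620 alternative values after knockdown kept their direction and side of the threshold, 87 lost the call, 7 gained it and 17 changed sign, against 786, 33, 3 and 11 after overexpression.

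For the members after knockdown, 5 were higher with no filter on low values, 3 with eBayes without a trend, 1 at an adjusted p under 0.01 and 1 to 5 with a library left out. The genes lower numbered 0 with eBayes without a trend, 2 after chromosome centring, 2 at an adjusted p under 0.01 and 2 to 4 with a library left out. For the other pathway genes after knockdown, 4 were higher with eBayes without a trend, 1 at an adjusted p under 0.01 and 1 to 6 with a library left out, while 0 were lower at an adjusted p under 0.01 and 0 to 3 with a library left out. Of the HIF targets after knockdown, 2 were higher at an adjusted p under 0.01 and 2 to 6 with a library left out. After overexpression 7 other pathway genes were lower at an adjusted p under 0.01. A stricter threshold makes fewer calls by construction, and the cause of the other changes was not tested.

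These log2 fold changes turned sign. Chromosome centring gave 0.0767 for PFKM, 0.0016 for TPI1, 0.0511 for GAPDH, 0.23 for LDHB and -0.0078 for PKM after knockdown, and -0.0233 for HK1 and -0.0373 for PFKM after overexpression. Scaling to the 75th percentile gave -0.0069 for PKM after knockdown, and -0.0516 for SLC2A1, -0.0521 for HK1, -0.0528 for PFKM, -0.0237 for PGM1 and -0.0691 for TALDO1 after overexpression. With a library left out, the range after knockdown was -0.095 to 0.0293 for HK1, -0.19 to 0.19 for HK2, -0.072 to 0.26 for PFKFB2, -0.19 to 0.10 for PFKFB3, -0.0038 to 0.0462 for PKM, -0.0638 to 0.15 for PDK1 and -0.0063 to 0.21 for PDK2. After overexpression it was -0.0239 to 0.12 for SLC2A1, -0.10 to 0.0105 for PFKL and -0.0274 to 0.0705 for TALDO1. Of these, TPI1, GAPDH and PFKM were called before centring in CWR22Rv1.

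The correlations of the deviations of same-numbered libraries were -0.01, 0.07 and -0.01 in CWR22Rv1 and 0.04, 0.04 and 0.02 in DU145. Differently numbered pairs were not set beside them, so these values cannot show whether same-numbered libraries shared a preparation. With the replicate block, 4 members were higher and 3 lower after knockdown, and 17 and 4 after overexpression. The block gave 4 other pathway genes higher and 1 lower after knockdown and 15 and 13 after overexpression, and 4 and 0 HIF targets after knockdown and 5 and 6 after overexpression. The log2 fold change of GALNT7 with the block was -1.11 and 1.18. The ratio of 1 further planned isoenzyme pair was not run, as it needs a gene not analysed here. SLC2A3 in CWR22Rv1 had too few reads to be tested at this depth.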
